A study of Homo sapiens with 6 samples.

Results

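The untreated peaks kept under both HDACis are stretches of the genome of SKOV3 cells, at least 1000 and under 10000 bp wide, that carried a peak of H3AcK9 (histone 3 acetylated at lysine 9) in untreated cells and that peaks also covered to at least 80% of their bases in each of 4 lists from treated cells. They numbered 3157, which is 0.838% of the 376666 peaks of untreated cells and 3.60% of the 87727 untreated peaks of that width on chromosomes 1 to 22 without 13 and 21. They were chosen by their covered share in the treated lists, so this share and all else measured in treated cells at these peaks is a description, and no test was made. SKOV3, an established human ovarian carcinoma cell line (labelled wt, the wild type), was either untreated or exposed for 24 h to romidepsin or vorinostat at 1 times the IC50, and chromatin was precipitated with an antibody to H3AcK9. Spike-in chromatin of Drosophila was added for the precipitation, per the methods. There was 1 ChIP sample per condition, 3 in all, beside 3 input samples for which no list was analysed here. The sequencing company split each treated sample into 2 parts, per the labels, so each drug has 2 peak lists, which are taken here as 1 sample and not as replicates. The study elsewhere speaks of the lists as separate experiments or biological replicates. With 1 sample per condition there is no replicate error, and differences between conditions are given as values only. A pool of cells also cannot tell more cells with the mark from more of the mark per cell.

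Acetylation of histone 3 at lysine 9 is placed by acetyltransferases and removed by histone deacetylases. It is known for marking the promoters and enhancers of genes in use, where broad stretches of it often surround the start of a gene. Vorinostat, a hydroxamic acid, inhibits deacetylases of several classes, and romidepsin, a cyclic peptide prodrug, acts mainly on class I. Both raise the acetylation of histones as a whole, and a peak list then shows where the mark still stands above its surroundings and not how much of it there is. The deposited peaks follow the human build hg19: they ran past the end of the hg38 chromosome on 12 of the 20 chromosomes used, although the labels name hg38. The genome at hand was hg38, so genes, base composition and sequence at the peaks, and the markers of an ovarian carcinoma line, were not analysed here. All positions below are hg19 unless stated otherwise.

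The widest of these peaks were covered in pieces. The widest of all, chr1:156083428-156093385, spanned 9958 bp, and treated peaks covered 85.2 and 85.0% of it in the first and second vorinostat list and 84.5 and 85.9% in the romidepsin lists. It was touched by 6 peaks in each vorinostat list and by 4 in each romidepsin list. The longest piece was 4188 bp in both romidepsin lists and 2429 bp in both vorinostat lists. Pieces here and below were measured only inside the untreated peak. Both romidepsin pieces were cut at its edge, and the romidepsin peaks themselves ended at different points beyond it. The next, chr11:73092006-73101935, was covered to 88.6 and 87.1% with vorinostat and to 91.2 and 93.7% with romidepsin. Its longest piece was 4827 and 2368 bp in the vorinostat lists and 5923 bp in both romidepsin lists. A peak of 9925 bp, chr1:44438692-44448616, was covered to 86.1, 85.0, 85.5 and 87.2% in the same order. On chromosome 20, chr20:61270818-61280649 reached 89.98 and 92.7%, then 91.0 and 94.7%. The 4 peaks together show covered shares that stayed well inside the limit without any list reaching 100%.

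The other 6 of the 10 widest included both the most even and the most uneven of them. chr18:46453316-46463142, of 9827 bp, lay inside a single peak of the first romidepsin list, while 4 peaks of the second one covered 92.7% of it. With vorinostat it was covered to 94.8 and 90.7%. The same sample thus gave either 1 unbroken domain or 4 pieces, depending on the list. chr12:52590249-52600046 was covered to 92.1, 92.4, 86.2 and 91.0%, and chr1:22245130-22254927 to 87.0, 87.3, 86.1 and 86.4%, nearly the same in every list. The remaining 3 were close to the limit in at least 1 list: the lowest share was 80.4% for chr8:126611949-126621733, 80.7% for chr8:62619364-62629010 and 80.3% for chr2:96923895-96933522. The untreated score, a value of unnamed scale that the authors deposited with each peak, lay between 0.829 and 3.66 for the 10 peaks.

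**Figure D1:**
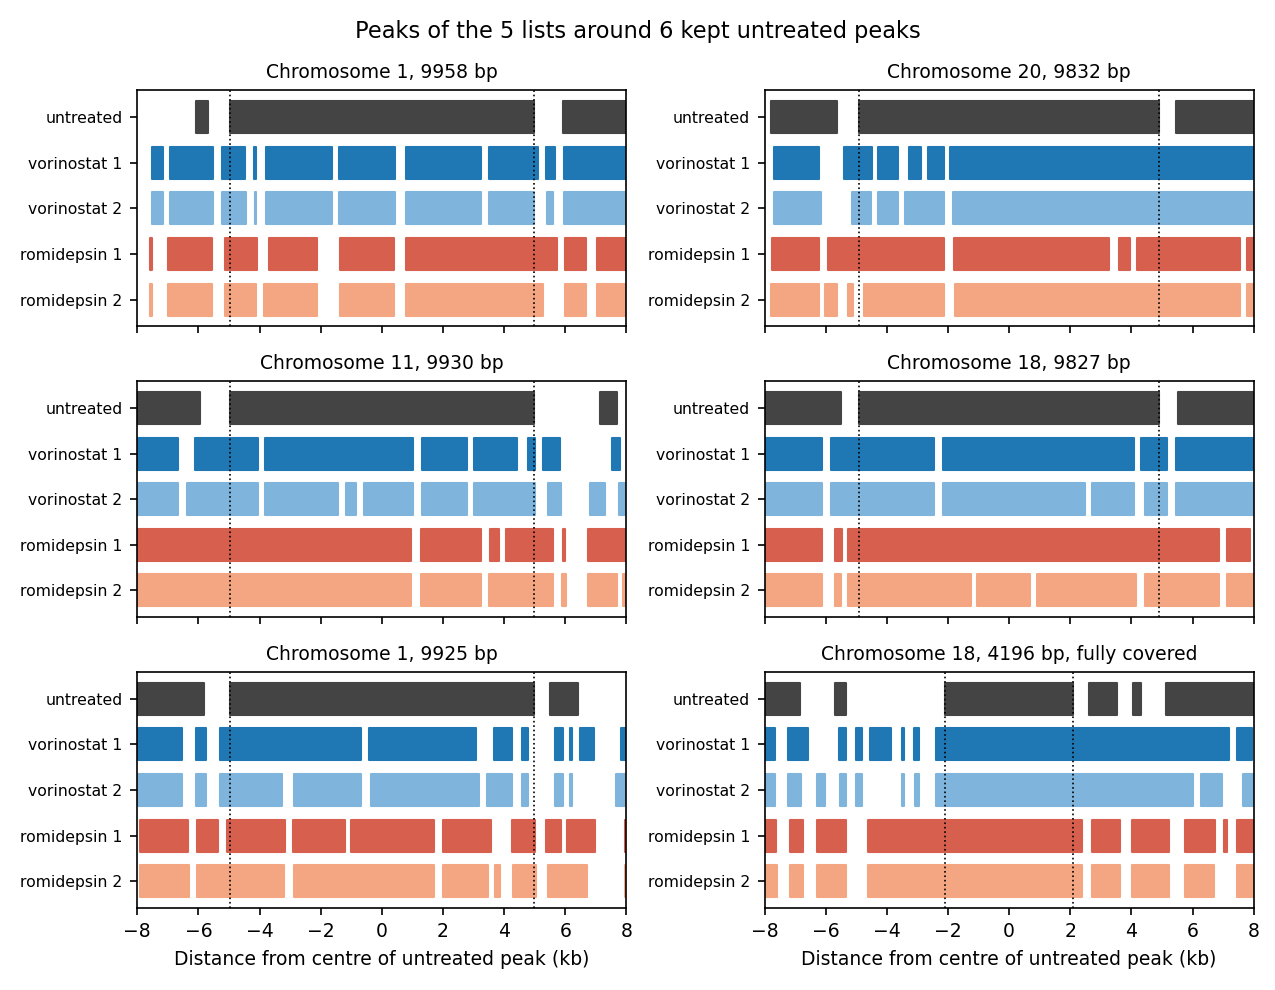
Peaks of the 5 lists (rows; bars are peaks) around the 5 widest of the kept untreated peaks and around the widest one covered to 100% in all 4 lists, against the distance from the centre of the untreated peak in kb. Dotted lines mark the edges of the untreated peak. Treated peaks fill most of each dotted span, mostly in several pieces, with breaks that lists share in some places and not in others. In the panel of 9827 bp, the first romidepsin list has 1 peak across the whole span. In the last panel, each treated list has 1 peak across the whole 4196 bp.

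Full cover was rare. In 197 of the 3157 peaks, or 6.24%, every base was covered in all 4 lists. Each of these necessarily lay inside 1 treated peak per list, since treated peaks lie at least 201 bp apart. The 5 widest were chr18:46515397-46519592 (4196 bp), chr1:68279800-68283204 (3405 bp), chr2:219154513-219157704 (3192 bp), chr3:111577556-111580451 (2896 bp) and chr19:17974197-17976941 (2745 bp). All of them are far narrower than the widest members, and their untreated scores ran from 0.921 to 2.96. The first lies on the same chromosome 18 stretch as the peak of 9827 bp described above.

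Across all 3157 peaks, vorinostat peaks covered a median share of 92.1% in the first list and 90.6% in the second, and romidepsin peaks 91.1 and 90.2%. Over all 87727 untreated peaks of that width it was 42.5 and 42.4% with vorinostat, and 48.4 and 48.0% with romidepsin. These medians show what the rule selected. Taken list by list, the 80% limit was reached by 13.1 and 11.1% of these peaks with vorinostat and by 14.4 and 12.9% with romidepsin. It was reached in both vorinostat lists by 7695 peaks (8.77%) and in both romidepsin lists by 8387 (9.56%). Of either set, the peaks kept with both drugs are those described here. At the other end, 1726 untreated peaks (1.97%) shared no base with any treated peak.

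The peaks crowded towards the limit. The lowest of the 4 covered shares had a median of 84.8% with quartiles of 82.2 and 89.0%, and 730 of the peaks lay between 80 and 82%. Just below, 868 peaks lay between 78 and 80%. The members nearest to the limit, chr1:212782195-212784099, chr11:6701666-6705470 and chr14:93476386-93478075, had a lowest share of exactly 80%. Just outside were chr20:3825976-3830544 with 79.9956%, chr17:30463186-30464589 with 79.9858% and chr9:90861038-90862411 with 79.9854%. Peaks on either side of the limit therefore differ little in cover, and the set has no natural boundary there. The lowest share fell in the second list of a drug more often than in the first: in 718 and 692 peaks for the second vorinostat and romidepsin lists, and in 469 and 618 for the first ones, with 660 ties.

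Within a drug, the lists agreed closely at these peaks. The first and second vorinostat list covered exactly the same number of bases in 1031 of them (32.7%), against 18.0% of all peaks of that width, and the romidepsin lists in 978 (31.0%), against 17.9%. The median absolute difference between the lists of a drug was 0.936 percentage points for vorinostat and 1.17 for romidepsin, and 95% of the peaks differed by at most 14.2 and 15.1 points. Shares that must exceed 80% cannot lie far apart, so this closeness follows in part from the choice. Between the drugs, with the lists of each averaged, the median difference was 0 points. Vorinostat covered more of 1548 peaks and romidepsin more of 1408, with 201 equal. Over all 87727 peaks romidepsin covered more of 47821 and vorinostat more of 37942, with a median difference of -2.24 points (vorinostat minus romidepsin). The 80% limit for both drugs also bounds the difference between them at kept peaks, so these values are not compared on equal terms.

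Kept peaks were met by a single treated peak in some cases and by several in others. Exactly 1 treated peak touched 53.0 and 49.6% of them with vorinostat and 46.2 and 44.4% with romidepsin, and 26.7% in all 4 lists at once. The median number of treated peaks touching it was 1 in the first vorinostat list and 2 in each of the other 3. One treated peak alone held at least 80% of the bases in 59.9 and 56.0% of the kept peaks with vorinostat, and in 52.2 and 49.8% with romidepsin. In all 4 lists together this was so for 975 peaks (30.9%). In each of the others, at least 1 list held the peak only as fragments. The largest number of treated peaks on a kept peak was 8, in the first romidepsin list, and 7 in the other 3 lists. The median longest stretch inside 1 treated peak was 1836 and 1790 bp with vorinostat and 1759 and 1723 bp with romidepsin. In the untreated peaks within the same width limits that were not kept, it was between 458 and 512 bp. This contrast follows in part from the rule, which asks for treated cover. Kept peaks were also wider, with a median of 2314 bp against 1611 bp.

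The smallest gap between neighbouring peaks differed between the lists and moved with this. It was 509 bp in the untreated list, 205 bp in both vorinostat lists and 201 bp in both romidepsin lists, and the narrowest peak was 127, 51 and 50 bp wide. Stretches that count as 1 peak in untreated cells can therefore count as several in treated cells, with the bases of the gaps uncovered. With treated peaks joined across gaps of up to 300 bp, 7597 untreated peaks (8.66%) were kept, and 1 joined peak held at least 80% of the bases in all 4 lists in 56.2% of them. With treated peaks joined across gaps of up to 508 bp, an alternative chosen after seeing the data, 15732 untreated peaks (17.9%) were kept, the 3157 among them, and 1 joined peak held at least 80% of the bases in 82.5% of them, against 30.9% with the treated peaks as deposited.

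Uncovered bases lay near the edges of the kept peaks more than in the middle. With each peak divided into 20 equal parts, treated peaks covered 80.6 and 79.0% of the bases of the 2 outermost parts with vorinostat, against 94.4 and 93.4% in the 2 central parts. With romidepsin the contrast was smaller, with 84.3 and 83.4% in the outermost and 91.7 and 91.3% in the central parts. In peaks that were not kept, the same values were 43.5 and 53.1% in the first vorinostat list and 48.9 and 54.3% in the first romidepsin list. The drop towards the edges was thus seen in both sets. At the edges themselves, treated peaks often ran on: a treated peak crossed both edges of 52.6 and 48.8% of the kept peaks with vorinostat and of 58.6 and 56.0% with romidepsin. For peaks that were not kept, this was between 14.03 and 20.6%. The rule asks for treated cover over most of a peak, so this contrast follows in part from the choice.

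The surroundings of the kept peaks were rich in acetylation peaks too, a measure that the rule did not use for the untreated list. Within 50000 bp on each side, untreated peaks covered a median of 37.9% of the bases around kept peaks (quartiles 25.6 and 49.97%) and 28.0% around those not kept (17.7 and 39.2%). Since kept peaks were wider, the comparison was repeated within classes of width. For peaks of 1000 to 1499 bp the medians were 35.1 and 25.3%, and for peaks of 7000 to under 10000 bp they were 46.4 and 35.03%, and the value around kept peaks was the higher one in all 7 classes. The quartiles of both sets overlap widely, so a single peak cannot be told by its surroundings. In treated cells the surroundings of kept peaks were covered to a median of 35.3 and 32.9% with vorinostat, somewhat below the untreated value, and to 43.2 and 40.8% with romidepsin, above it. Around peaks that were not kept, romidepsin gave 27.8 and 26.0% and vorinostat 23.6 and 22.1%, all below the untreated 28.0%. Cover is not measured alike in these lists: the smallest gap was 509 bp in the untreated list and 205 or 201 bp in treated ones. Differences between treated and untreated cover therefore cannot be read as a change in the mark. The nearest other untreated peak was at a median of 669 bp from a kept peak and 835 bp from one that was not kept.

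Kept peaks also lay near each other. Following a kept peak along the chromosome, the next untreated peak of that width was kept in 304 of 3157 cases (9.63%), against 3.60% over all such neighbours. Within 10000 bp, the next was kept in 11.2% of cases, against 4.52% for all neighbours at that distance, and beyond 10000 bp in 3.33%, against 1.94%. With gaps of up to 20000 bp between members allowed, a distance chosen after seeing the data, 1020 peaks (32.3%) fell into 418 runs. Of these runs, 295 held 2 members, 123 held 3 or more and 10 held 5 or more. Untreated peaks of that width are dense themselves: 56436 of 87707 pairs of neighbours lay within 10000 bp. Runs were not counted for an equal number of other such peaks, so whether 32.3% is high was not tested. The richest run, chr11:66791286-66835022, held 8 kept peaks among 13 of that width in 43737 bp. The runs chr8:22413739-22458414 and chr1:68147758-68238036 held 7 each, among 10 and 13 peaks. A further run of 4 on chromosome 1 began at 68279800 with the second widest of the fully covered peaks, so both runs lie on the same stretch of chromosome 1. At chr20:60927585-60956673 and at chr10:75632410-75677802, all 5 untreated peaks of that width were kept.

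At the 80% limit kept peaks were wider than the rest. Their median width was 2314 bp (quartiles 1485 and 4056 bp), against 1611 bp (1229 and 2482.75 bp) for untreated peaks in the same limits that were not kept, and 1146 bp for those without any treated base. The direction turned at stricter limits: the median width was 1567 bp for peaks covered to at least 90% in all 4 lists and 1272 bp for those covered to 100%, both below the 1627 bp of all untreated peaks of that width. The share that was kept at 80% was 2.12% of the peaks of 1000 to 1499 bp, and the 95% confidence interval (Clopper-Pearson, exact) reached from 1.98 to 2.27%. It was 4.04% at 2000 to under 3000 bp (3.73 to 4.36%) and 9.22% at 7000 to under 10000 bp (8.01 to 10.6%). Such intervals cover counting error only, and neighbouring peaks are not independent. The narrowest kept peaks were the most often whole: 1 treated peak per list held at least 80% of the bases in 68.0% of those of 1000 to 1499 bp, in 9.69% at 3000 to 3999 bp and in 1 of 189, or 0.529%, at 7000 to under 10000 bp. At the 80% limit, wide domains were kept more often and in more pieces. The width trends, their turn at stricter limits and the number of pieces follow in part from the rule. Neighbouring treated peaks lie at least 205 bp apart with vorinostat and 201 bp with romidepsin. One such gap inside a peak of 1000 bp takes its cover below 80%, while a wide peak can hold several.

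The share that was kept varied less with the score of the untreated peak than with its width. The median score was 0.931 for kept peaks and 0.910 for the others. With the peaks divided by score into 10 groups of equal size, 2.30% of the lowest group were kept (95% confidence interval 2.00 to 2.64%), 4.13% of the sixth (3.72 to 4.56%) and 3.42% of the highest (3.05 to 3.82%). The lowest of these groups was also the narrowest, with a median width of 1445 bp, against 1587 to 1707 bp in the others. Peaks of 2000 to under 10000 bp were also divided by score into 4 groups. The lowest had 4.42% kept and the other 3 between 6.08 and 6.25%. In peaks of 1000 to under 2000 bp, divided likewise, 2.20% of the lowest and 2.30% of the highest group were kept. The groups between them had 2.58 and 2.49%. Among the kept peaks with the highest scores, chr19:47161581-47162701 had a score of 11.4 and a width of 1121 bp, and chr11:120172864-120175587 had 10.3 and 2724 bp. With 7.31, chr11:120176268-120177927 also ranked among the first 5 and lies next to the latter. The other two were chr3:124828287-124830317 with 7.79 and chr3:177003795-177005273 with 7.69. The lowest scores, 0.570, 0.571 and 0.576, belonged to chr3:50668935-50670431, chr1:151933051-151934359 and chr8:38769372-38770792. Both ends of the scale were thus represented on several chromosomes. In treated cells, the peaks that touched kept peaks had a median score between 0.894 and 0.907 in the 4 lists. It was 0.868 to 0.881 for those touching peaks that were not kept, and 0.864 to 0.876 for all peaks of each list. In the same order, the median widths were 1520 to 1675 bp, 367 to 404 bp and 205 to 219 bp. The rule itself favours wide treated peaks at kept ones.

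The chromosomes differed in the share kept. Chromosome 19, which is dense in genes, had the highest, with 288 of 4933 peaks or 5.84% (95% confidence interval 5.20 to 6.53%). Chromosome 17 followed with 4.71% (4.10 to 5.38%), chromosome 20 with 4.41% (3.73 to 5.17%) and chromosome 22 with 4.38% (3.48 to 5.44%), whose intervals overlap. The lowest was chromosome 4 with 54 of 3354 or 1.61% (1.21 to 2.10%), then chromosome 6 with 2.17% (1.77 to 2.64%) and chromosome 7 with 2.35% (1.90 to 2.86%). At the rate that all peaks of the same classes of width had, chromosome 19 would hold 191 kept peaks and chromosome 4 would hold 116, so that the counts were 1.504 and 0.467 times these. The contrast between these chromosomes thus remained with width taken into account. Chromosome 19 also had the highest median covered share of all its peaks in each treated list, from 53.0 to 64.8%, and chromosome 4 the lowest, from 34.1 to 37.0%. With romidepsin alone 16.8% of the chromosome 19 peaks were kept in both lists, and with vorinostat alone 10.7%; on chromosome 4 these were 4.98 and 6.26%. Chromosome 1 held the largest number of members, 411, and also the most untreated peaks of that width, 9872. Its share kept was 4.16%, and its count was 1.145 times that at the rate for its classes of width.

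The study asked about HERV loci, proviral remnants of ancient retroviral infections of the germ line, and 83 of them are listed in its supplementary data in the coordinates of the peak lists. They were selected on these samples for a change at the locus, so they are no independent set. Of the untreated peaks of 1000 to under 10000 bp, 113 shared a base with a locus and 5 of these were kept, or 4.42%, near the 3.60% of all such peaks. At the HERVIP locus 4215, chr14:93092034-93093074 lay wholly inside the provirus and was covered to 100% in every list but the first romidepsin one, where it was 87.8%. In hg38 that locus is in an intron of RIN3, a regulator of Rab GTPases in endocytosis. There too, the study lists increased acetylation with vorinostat only, which is not the measure of covered share. At the HML1 locus 4755, chr19:51900939-51902808 also lay wholly inside, with shares of 88.8 and 93.4% with vorinostat and 84.9 and 85.0% with romidepsin. That locus overlaps exons of LIM2-AS1, a non-coding gene, and of the pseudogene NIFKP6.

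The other 3 HERV peaks only reached into a locus. chr5:10723198-10727186 shared 1852 of its 3989 bp with the HERVL locus 1756, in an intron of DAP, a gene known for a role in cell death and autophagy. Its covered share was 84.0 and 88.4% with vorinostat and 94.6 and 94.7% with romidepsin. chr17:41433305-41442250, of 8946 bp, shared 2046 bp with the PRIMA41 locus 4454, which in hg38 shares bases with an exon of LINC00910, a non-coding gene. It was covered to 82.6 and 83.0% with vorinostat and to 91.0 and 90.6% with romidepsin, so at both of these peaks romidepsin covered more. The study lists increased acetylation at locus 1756 with vorinostat only, by a measure other than covered share. At the HERVH locus 1054, chr3:104153229-104158805 shared 28 of its 5577 bp with the provirus and thus lay almost wholly beside it, 96.5 and 91.6% covered with vorinostat and 89.4 and 87.6% with romidepsin. In hg38, the coding gene nearest to this locus is ALCAM, a cell adhesion molecule, 921114 bp away. Loci 1054, 4454 and 4755 are not among those that the study lists with increased acetylation. The study reports that HERV loci with a change mostly showed a reduction.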

How the data were processed

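H3AcK9 ChIP-seq peak lists of SKOV3 cells were used, 1 for untreated cells and 2 for each of vorinostat and romidepsin. The reporting summary names SOAPnuke for read filtering, SOAPaligner, SOAP2 and BWA for alignment, and MACS 1.4.2 for peaks, with a p-value limit of 1e-05. A score of unnamed scale accompanies each peak in the lists that the authors deposited. The lists hold no read numbers and the reporting summary gives only an average over libraries, so the depth of each sample is unknown.

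Covered bases were computed in Python 3.11.15 with NumPy 2.4.6, pandas 2.3.3 and SciPy 1.17.1, figures with Matplotlib 3.10.9. They equalled those of bedtools 2.31.1 in 350908 of 350908 cases, and interval functions tested on simulated data recovered 24 of 24 quantities. No coordinates were converted; for HERV loci, the hg38 positions listed for the same loci were set against GENCODE release 44.

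The peaks and comparisons were chosen with earlier results of these data known. Named were the 10 widest peaks, the 5 widest at 100%, the 5 highest and 3 lowest scores, the 3 nearest to the limit on each side, and the chromosomes with the highest and lowest share; runs and HERV peaks were added after seeing the values. Gene lists and cell type markers were not analysed here, since they need an hg19 annotation.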

Additional observations from a re-analysis of the deposited data

Results flagged for a closer look

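Some data outside the definition also held kept peaks. Chromosomes 13, 21 and X had no usable pair of romidepsin lists, since both lists were without peaks on 13 and X and the second on 21. Of their 4640 untreated peaks of 1000 to under 10000 bp, 325 (7.004%) were kept in both vorinostat lists, against 8.77% on the chromosomes used. A count of 3, the limit that a count of 0 allows, would be 0.0647%.

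Among untreated peaks of 10000 bp or more on the chromosomes used, 171 of 893 (19.1%) were kept in all 4 lists, the widest of 65371 bp. The share was above the 9.22% of the widest class within the limits. Below them, 1840 of 102459 peaks of 500 to under 1000 bp (1.80%) and 5104 of 161595 under 500 bp (3.16%) were kept. The latter share was above the 2.12% of peaks of 1000 to 1499 bp, so the share did not climb with width over all widths.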

How the results depend on the processing

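The number of kept peaks depended strongly on the definition. In place of 3157 peaks (3.60%), a limit of 50% of the bases gave 24968 (28.5%), and limits of 90, 95 and 100% gave 683, 355 and 197. Using the vorinostat lists only gave 7695, the romidepsin lists only 8387, the first list of each drug 5522 and the second of each 4551. Treated peaks joined across 300 bp gave 7597 and across 508 bp 15732 (chosen after seeing the data), and treated peaks at or above the median score of their list 417. Joining across 100 bp changed nothing, because no list had so small a gap. Width limits from 500 to under 10000, 1000 to under 3000, 2000 to under 10000 and 3000 to under 10000 bp gave 4997, 1944, 1820 and 1213 peaks, or 2.63, 2.74, 5.72 and 7.23%. Without chromosomes 8, 17 and 20 there were 2611 and without chromosome 19 there were 2869. Under the 7 alternatives computed for them, the median width ran from 1272 to 2668 bp (below that of all peaks at limits of 90 and 100%), the median score from 0.915 to 0.929, the median distance to the nearest untreated peak from 670 to 705 bp, and the share held by 1 treated peak from 3.905 to 100%. The alternatives for gene starts and base composition were not run, since they need an hg19 genome and annotation. No paired analysis was possible because there is 1 sample per condition and no result comes from a test.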
